A study of Mus musculus with 6 samples.

Results

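Mitochondrial ribosomal protein mRNAs were examined in 4T1, an established line of mammary carcinoma cells from a BALB/c mouse. The members are the protein-coding genes of GENCODE mouse release 21 whose symbols begin with Mrpl or Mrps followed by a number: 78 of the 54146 genes counted, of which 77 had enough reads to be tested. The 78 genes comprise the proteins of the large subunit (Mrpl) and of the small subunit (Mrps), although Mrps30 and Mrps18a are placed in the large subunit by structure, and Mrps36, an adaptor of the alpha-ketoglutarate dehydrogenase complex, is no longer counted as a ribosomal protein. The groups were wild-type (WT) cells and 2 Ki-67 knockout clones of genotype Mki67-/-, clone 1 and clone 2, each with 2 libraries of stranded total RNA depleted of ribosomal RNA. The labels name no treatment for any group. Each clone is a single line, so genotype and clone history cannot be told apart within a clone, and with 2 clones the spread between knockout lines rests on 2 values.

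Mitochondria keep a small genome whose messenger RNAs all encode subunits of the respiratory chain and of ATP synthase. These messages are translated inside the organelle by the mitochondrial ribosome, or mitoribosome, whose RNA comes from the mitochondrial genome and whose proteins are all encoded in the nucleus, made in the cytoplasm and imported. Some of these proteins descend from the bacterial ribosome, and others were added during the evolution of mitochondria and have no bacterial counterpart. In proliferating and tumour cells the nuclear genes for them are known targets of the factors NRF1, GABP, YY1 and MYC, and mitoribosomal protein that is not built into a subunit is degraded.

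The promoters of these genes were read for the core letters of those factors. Windows of 300 bases, from 250 before to 50 after the annotated start, were present in RefSeq's GRCm38.p6 table for 69 members. Some RefSeq starts lay far from the GENCODE start of the gene: 17016 bases for Mrpl33, 7979 for Mrps24, 3185 for Mrpl35 and 2496 for Mrpl36. These windows are included in the counts. Both strands were searched for TGCGCA (core of the NRF1 site), CCGGAAG (core of the ETS and GABP site), AAGATGG (YY1 core) and CACGTG (the E-box of MYC and MAX), the first of which is its own reverse complement, as is the last; the ETS and YY1 letters can share the bases AAG. TGCGCA was found in 21 of the 69 windows, 30.4%, against 9.36% of all 20595 mouse promoters in the table and 15.1% of the promoters of the genes tested. CCGGAAG was found in 24 windows, 34.8%, against 11% and 19.6%. AAGATGG was found in 13 windows, 18.8%, against 6.39% and 7.51%. CACGTG was found in 5 windows, 7.25%, against 7.66% and 10.5%. The NRF1, ETS and YY1 letters were thus found in a larger share of the members' windows than of either set of promoters. The E-box share was close to that of all promoters and below that of the genes tested, and no difference was tested. These are counts of letters in a window and say nothing of binding.

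The promoters of the 3 Mrps18 paralogs are shown because their mRNAs moved in opposite directions in the knockout clones, and that of Mrpl45 because its mRNA was among those that fell most. The window of Mrpl33, which fell most, is not shown because it lies 17016 bases from the GENCODE start. Capitals mark the 4 motifs on either strand, so that CTTCCGG is CCGGAAG on the other strand. Each window is written 5′ to 3′ on the strand of its gene.
Mrps18b, chr17:35916391-35916690, minus strand: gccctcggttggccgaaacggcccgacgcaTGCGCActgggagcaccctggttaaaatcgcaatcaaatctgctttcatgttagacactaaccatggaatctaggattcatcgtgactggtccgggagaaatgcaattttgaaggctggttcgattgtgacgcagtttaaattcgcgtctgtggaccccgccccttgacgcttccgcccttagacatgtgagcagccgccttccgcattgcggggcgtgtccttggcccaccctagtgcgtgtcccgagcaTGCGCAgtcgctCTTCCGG
Mrps18a, chr17:46110754-46111053, plus strand: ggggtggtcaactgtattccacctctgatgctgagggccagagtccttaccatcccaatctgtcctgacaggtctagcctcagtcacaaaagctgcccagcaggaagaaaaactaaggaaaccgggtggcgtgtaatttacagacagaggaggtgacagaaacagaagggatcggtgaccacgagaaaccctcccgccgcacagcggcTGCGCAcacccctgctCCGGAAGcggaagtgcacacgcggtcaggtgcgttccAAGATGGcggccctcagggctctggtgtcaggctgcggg
Mrps18c, chr5:100798509-100798808, plus strand: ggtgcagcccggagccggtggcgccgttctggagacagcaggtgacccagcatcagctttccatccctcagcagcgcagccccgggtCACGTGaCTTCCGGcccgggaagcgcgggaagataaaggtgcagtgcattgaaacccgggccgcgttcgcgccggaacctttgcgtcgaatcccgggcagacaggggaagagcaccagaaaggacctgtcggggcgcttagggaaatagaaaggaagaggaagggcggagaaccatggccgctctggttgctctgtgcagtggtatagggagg
Mrpl45, chr11:97315466-97315765, plus strand: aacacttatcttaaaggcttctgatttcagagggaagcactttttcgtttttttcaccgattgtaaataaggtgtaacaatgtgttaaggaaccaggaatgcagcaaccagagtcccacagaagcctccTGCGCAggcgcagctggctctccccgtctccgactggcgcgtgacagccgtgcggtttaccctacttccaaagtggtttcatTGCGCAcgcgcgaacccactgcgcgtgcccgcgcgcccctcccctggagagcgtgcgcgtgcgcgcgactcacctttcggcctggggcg
The Mrps18b window holds TGCGCA at positions -220 and 32 from the RefSeq start and CCGGAAG at 44. In Mrps18a, TGCGCA lies at -42, CCGGAAG at -26 and AAGATGG at 12. Mrps18c has no TGCGCA: it has CCGGAAG at -156 beside CACGTG at -163. Mrpl45, whose mRNA fell, holds TGCGCA at -121 and -39. The letters were found both in members that rose and in members that fell. Of the 18 windows of members that rose in the mean of both clones, 7 held TGCGCA and 8 held CCGGAAG, and of the 13 windows of members that fell, 4 held TGCGCA and 5 held CCGGAAG. The YY1 letters were in 5 of the 18 and 1 of the 13. Among the 37 windows of members not called, 10 held the NRF1 letters, 10 the ETS letters and 7 the YY1 letters.

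The libraries held 10428970 to 22658499 reads assigned to genes. The WT libraries differed from each other more than those of either clone, with a chi-square per degree of freedom over genes of 78.8 against 17.7 in clone 1 and 25 in clone 2. WT replicate 2 had the smallest share of reads on genes, 43.2%, and the largest share mapped to several places, 29.3%. In 5 members the WT libraries were over 1.5-fold apart, and in 0 members were those of a clone. Mki67, the targeted gene, stood at 736 and 647 CPM (read counts scaled to the size of the library) in WT, 85.8 and 103 in clone 1 and, in clone 2, 39.9 and 52.7, so every knockout library lay below both WT libraries. The epithelial markers Epcam, Krt8 and Krt18 were high in every library and Krt5 had no read. The 10 epithelial markers summed to 3560 to 4042 CPM in WT and 5645 to 6088 in the clones, and 5 of the 9 tested rose in the mean of both clones; the part of this shift in the members' changes was not tested. Of 12 immune markers 10 were under 1 CPM in every library, and the summed level of the list was 8.68 to 12.3 CPM in WT, 9.61 to 10.4 in clone 1 and 22.9 to 25.5 in clone 2, nearly all of it Cd14. Of 12 fibroblast and endothelial markers 10 were under 1 CPM in every library, and the sum of the list was 49.8 to 54.1 CPM in WT and 24.1 to 28.9 in the clones, mostly Pdgfra. In bulk RNA, fewer cells with a message and less of it per cell cannot be told apart.

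Mitoribosomal protein mRNAs moved in both directions: 24 of the 77 tested members rose and 14 fell when the mean of both clones was set against WT, and 39 did not pass the threshold (edgeR's quasi-likelihood test, adjusted p under 0.05 over all 13755 genes tested). Across all genes tested 26.6% were called higher and 29.4% lower, against 31.2% and 18.2% of the members. The member median was a log2 fold change of 0.14, against -0.02 for all genes tested. With upper-quartile scaling 19 members were called higher and 17 lower, and the medians of the members and of all genes tested were 0.07 and -0.09. Without WT replicate 1 the member median was 0.24, and without WT replicate 2 it was 0.04, so its size depended on which WT library was used. Most members changed little. In the mean of both clones 66 of the 77, 85.7%, lay within 0.5 of zero on the log2 scale, against 53.9% of all genes tested, and 1 member, Mrps18b, was past 2-fold (1.30% against 20.1%). The standard deviation of the log2 fold change was 0.36 over the members and 1.35 over all genes tested. Only 2 of the 24 rises, those of Mrps18b and Mrps28, and 0 of the 14 falls passed when edgeR was asked for a change of more than 1.5-fold, with 1 fall at an unadjusted p under 0.05; no other tool was run for that threshold. Of all genes tested 8.55% were called higher and 12.4% lower in that test.

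Each clone was also compared with WT alone; both comparisons use the same WT libraries. In clone 1, 14 members rose and 15 fell, 18.2% and 19.5% of the members, with a background of 24.7% higher and 26.2% lower and a member median of 0.09. Without clone 1 replicate 2 only 8 members were called higher. In clone 2, 26 members rose and 9 fell, 33.8% and 11.7%, with a background of 25.3% higher and 28.2% lower and a member median of 0.13. Without clone 2 replicate 1 the falls numbered 5. When a change of more than 1.5-fold was required, 1 member was higher in clone 1 (background 8.11%) and 2 in clone 2 (background 9.07%), and 0 were lower in either by edgeR (backgrounds 11.4% and 13%), against 2 and 1 at an unadjusted p under 0.05. The sum of all members was 3321 and 3210 CPM in WT, with 3296 and 3402 in clone 1 against 3849 and 3591 in clone 2. One clone 1 sum lay between the WT sums and the other above both, and both clone 2 sums lay above every other library.

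**Figure D1:**
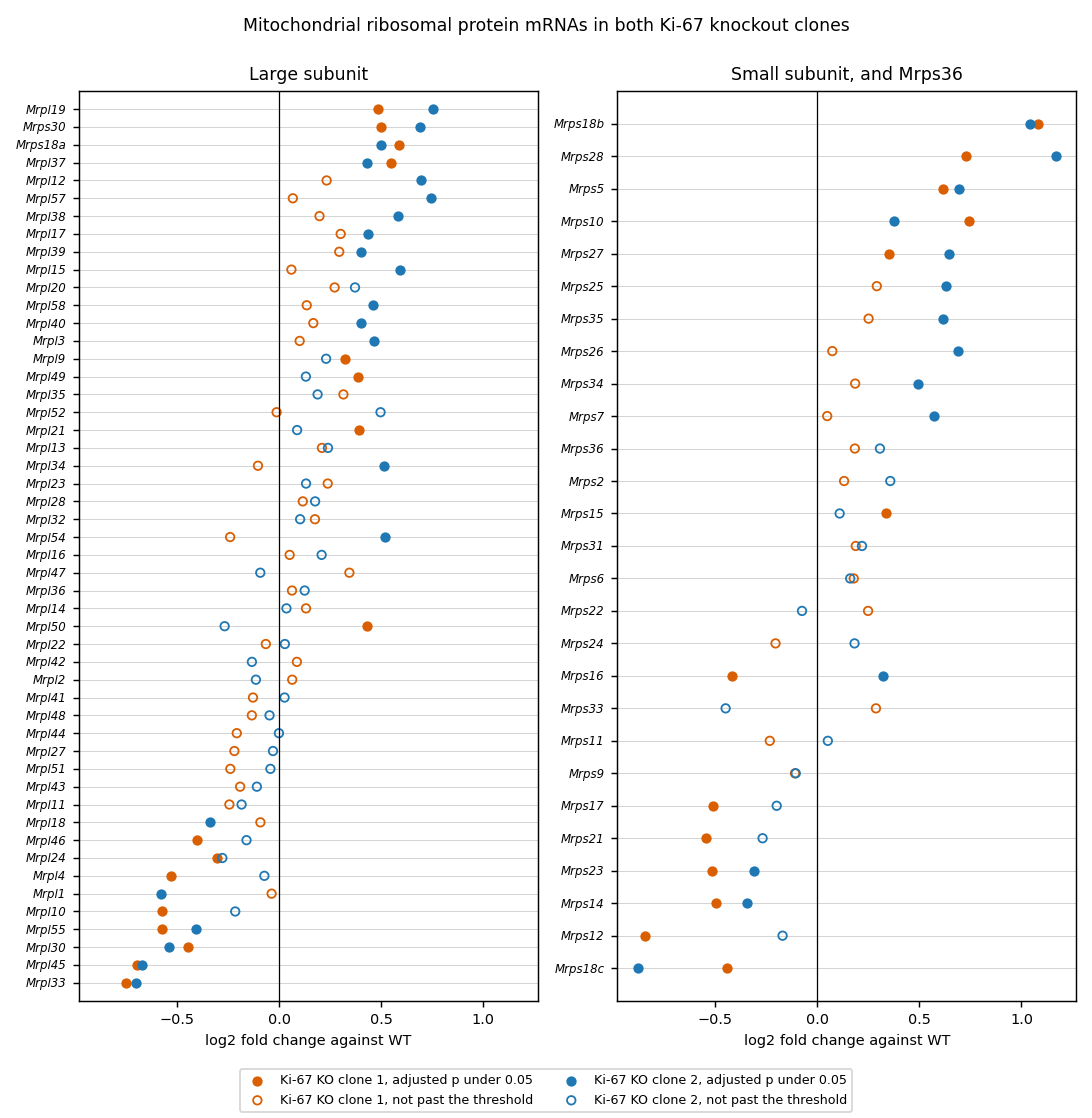
Each row is 1 of the 77 tested members, ordered by the mean of both clones, with the log2 fold change against WT on the x axis; orange is clone 1, blue is clone 2, and filled points passed an adjusted p under 0.05. By the mean of both clones Mrps18b and Mrps28 rose farthest among the small subunit genes, and Mrpl33, Mrpl45 and Mrps18c fell farthest of all members. In clone 1 alone Mrps12 is the point farthest to the left, at -0.84, and Mrps18c is at -0.44. On the right of clone 1, Mrps10 at 0.74 lies beside Mrps28 at 0.73.

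Levels differed far more between members than between groups. Per kilobase of exon, the median member stood at 15.9 RPKM, the CPM divided by exon length in kilobases, averaged over the 3 groups. Mrpl28, a large subunit protein with a bacterial counterpart, was highest at 91.3 RPKM (85.2 in WT, 92.4 in clone 1, 96.4 in clone 2). Mrpl34 followed at 69.9 RPKM (62.4, 58.0 and 89.1) and Mrpl12, the stalk protein that recruits translation factors, at 62.6 RPKM (49.5, 58.2 and 80.0). The order of these 3 was the same in WT and in clone 2, but in clone 1 Mrpl34 and Mrpl12 stood at nearly equal levels. At the other end Mrpl53 had 3 reads in all 6 libraries together and could not be tested; it overlaps the gene Gm42688 on the same strand, and whether reads were lost to that overlap was not tested. Mrps36 stood at 0.736 RPKM and Mrpl23, which lies at the exit of the peptide tunnel, at 1.01 RPKM. Mrps36 showed 1.08 and 0.650 CPM in WT, 1.01 and 0.854 in clone 1 and, in clone 2, 0.942 and 1.08, so its groups overlapped.

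By subunit, 14 of the 50 tested large subunit genes rose and 8 fell in the mean of both clones, 28% and 16%. Of the 26 small subunit genes 10 rose and 6 fell, 38.5% and 23.1%. The background was 26.6% higher and 29.4% lower, so the share of large subunit genes that rose was near it. With upper-quartile scaling the large subunit counts were 10 higher and 11 lower, and on leaving out either clone 1 library they were 9 and 5. With each chromosome's median change removed, the small subunit counts were 5 higher and 3 lower. Of all genes tested, 23.4% were called higher and 33.4% lower with upper-quartile scaling, and 25.7% and 26.9% with chromosome medians removed. By origin the counts were less alike. Of the 30 tested genes for proteins without a bacterial counterpart 14 rose and 3 fell, 46.7% and 10.0%, with a median log2 fold change of 0.25. The former class follows the ribosome nomenclature and so holds Mrps18a and Mrps18b, although both are relatives of the bacterial S18 protein. Of the 46 genes for proteins with a bacterial counterpart 10 rose and 11 fell, 21.7% and 23.9%, with a median of 0.11. Without clone 1 replicate 1 the rises among the latter numbered 6, and with upper-quartile scaling 7 of them rose and 14 fell. With Mrps18a and Mrps18b moved to the bacterial class, a choice made after seeing the data, 12 of 28 and 12 of 48 rose, with medians of 0.22 and 0.13. The classes were set side by side with no test of the difference, and the background shares of 26.6% and 29.4% apply to both. The clones differed. Of the 30 genes without a bacterial counterpart 7 rose and 3 fell in clone 1, 23.3% and 10%. In clone 2 the counts were 15 and 2, 50% and 6.67%. Of the 46 with one, 7 rose and 12 fell in clone 1, 15.2% and 26.1%. In clone 2 the counts were 11 and 7, 23.9% and 15.2%. The backgrounds were 24.7% and 26.2% in clone 1 and 25.3% and 28.2% in clone 2.

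Among small subunit genes the farthest rise was that of Mrps18b (chr17:35910379-35916389, minus strand), 1 of 3 vertebrate relatives of the bacterial S18 protein. Its level was 27.3 and 21.6 CPM in WT, 51.2 and 51.6 in clone 1 and, in clone 2, 54.0 and 46.1. All 4 knockout libraries lay well above both WT libraries, and the fitted rise was 2.09-fold (log2 1.06, SE 0.13, edgeR adjusted p = 3.02e-06). Mrps28 (chr3:8802146-8923918, minus strand), whose protein is assigned as the relative of the large bacterial S1 protein, stood at 17.1 and 16.0 CPM in WT, at 25.6 and 29.1 in clone 1 and at 35.6 and 38.4 in clone 2. The groups did not overlap, and the mean rise was 1.93-fold (log2 0.95, SE 0.12, edgeR adjusted p = 6.29e-06). Clone 2 lay above clone 1 by a log2 difference of 0.44. That difference ranged from 0.34 to 0.53 when single knockout libraries were left out, and its call was lost in each of those fits. Mrps28 overlaps Gm15466 on the same strand, and the part of that overlap in its count was not tested.

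Mrps5, whose bacterial counterpart lines the entry of the messenger RNA channel, went from 42.4 and 37.7 CPM in WT to 58.9 and 63.4 in clone 1 and 62.4 and 67 in clone 2. That is a rise of 1.57-fold (log2 0.65, SE 0.11, adjusted p = 9.06e-05). Mrps10, a protein of the head of the small subunit, showed 21.8 and 17.8 CPM in WT, 33.3 and 32.3 in clone 1 and, in clone 2, 28.3 and 22.7. Its lowest clone 2 library lay just above the higher WT library, and the mean rise was 1.47-fold (log2 0.56, SE 0.13, adjusted p = 0.00188). Mrps10 lies on chromosome 17, and with each chromosome's median change removed its log2 change was 0.20 (adjusted p = 0.220). Mrps27, a pentatricopeptide repeat protein with no bacterial counterpart, had 21.2 and 23.6 CPM in WT, 29.2 and 28.2 in clone 1 and, in clone 2, 37.7 and 32.9, a rise of 1.41-fold (log2 0.50, SE 0.12, adjusted p = 0.00174). The other small subunit genes that rose were Mrps7, Mrps25, Mrps26, Mrps34 and Mrps35, with log2 changes of 0.31 to 0.46; in Mrps26 a WT library lay above both clone 1 libraries.

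Small subunit genes that fell were led by Mrps18c (chr5:100798627-100804471, plus strand), the paralog closest to the bacterial S18 protein. It stood at 17.4 and 14.2 CPM in WT, at 11.8 and 11.2 in clone 1 and at 8.54 and 8.50 in clone 2. Every knockout library lay below both WT libraries, and the mean fall was 1.58-fold (log2 -0.66, SE 0.14, adjusted p = 0.000626). Mrps18c overlaps Gm43511 on the same strand. Mrps14, another protein of the head with a bacterial counterpart, had 61.4 and 62.1 CPM in WT, 42.9 and 44.7 in clone 1 and, in clone 2, 46.6 and 50.5, a fall of 1.34-fold (log2 -0.42, SE 0.10, adjusted p = 0.00202).

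Mrps23, which has no bacterial counterpart, showed 51 and 44.8 CPM in WT, 32.7 and 34.1 in clone 1 and, in clone 2, 39.3 and 37.7 (log2 -0.41, SE 0.11, adjusted p = 0.00330). Mrps21 stood at 21.7 and 27.7 CPM in WT, at 17.1 and 17 in clone 1 and at 21.5 and 19.9 in clone 2; its higher clone 2 library all but reached the lower WT library (log2 -0.41, SE 0.12, adjusted p = 0.0107). Both calls were lost when chromosome medians were removed: Mrps23 then changed by -0.22 (adjusted p = 0.0914) and Mrps21 by -0.26 (adjusted p = 0.0877). Mrps21 was also lost without WT replicate 2 (-0.21, adjusted p = 0.241). Mrps17 and Mrps12 were the other small subunit genes that fell. Mrps12, the homologue of the bacterial protein that governs decoding accuracy, was low in clone 1: 23.7 and 33.4 CPM in WT, 16.7 and 15.3 in clone 1 and, in clone 2, 25.9 and 25.3, where the libraries lay between those of WT. Its log2 change was -0.84 in clone 1 and -0.17 in clone 2; it is named because its libraries overlapped, after its values were seen.

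The Mrps18 family therefore split. Its 3 products occupy different places in the ribosome: that of Mrps18a belongs to the large subunit, and those of Mrps18b and Mrps18c to the small subunit. Mrps18a (chr17:46110986-46128910, plus strand) stood at 53.0 and 46.9 CPM in WT, at 75.8 and 74.0 in clone 1 and at 77.7 and 63.5 in clone 2, a rise of 1.46-fold (log2 0.54, SE 0.11, adjusted p = 0.000758). Mrps18a and Mrps18b thus rose while Mrps18c fell, and in each of the 3 all knockout libraries lay on 1 side of both WT libraries. Mrps18a and Mrps18b share chromosome 17 and Mrps18c is on chromosome 5. With chromosome medians removed, Mrps18a changed by 0.18 in the mean of both clones (edgeR adjusted p = 0.187), and Mrps18b and Mrps18c remained past the threshold. In clone 1 alone the call of Mrps18c was then lost. That clone 1 call was also lost by DESeq2's Wald test (adjusted p = 0.0673) and, by edgeR, with no filter on low counts (adjusted p = 0.108). It was lost as well without WT replicate 1, at a log2 change of -0.30, and without clone 1 replicates 1 or 2, at -0.48 and -0.40.

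In the large subunit, Mrpl19, whose bacterial counterpart sits at the interface between subunits, had 38.5 and 31.8 CPM in WT, 47.6 and 50.1 in clone 1 and, in clone 2, 61.9 and 56.2. The groups rose in steps without overlap, and the mean rise was 1.54-fold (log2 0.62, SE 0.12, adjusted p = 0.000263). Mrps30, a large subunit protein without a bacterial counterpart in spite of its name, had 32.9 and 33.0 CPM in WT, 45.8 and 47.4 in clone 1 and, in clone 2, 56.4 and 50.2, a rise of 1.51-fold (log2 0.59, SE 0.11, adjusted p = 0.000222). Mrpl12, which besides its place in the stalk is known to bind the mitochondrial RNA polymerase, stood at 76.3 and 75.3 CPM in WT, at 90.7 and 87.6 in clone 1 and at 122 and 123 in clone 2. Its mean rise was 1.38-fold (log2 0.46, SE 0.10, adjusted p = 0.000798), and against WT the change was 0.69 in clone 2 (adjusted p = 7.37e-05) and, for clone 1, 0.23 (adjusted p = 0.0918). The other large subunit genes that rose were Mrpl3, Mrpl9, Mrpl15, Mrpl17, Mrpl37, Mrpl38, Mrpl39, Mrpl49, Mrpl57 and Mrpl58, with log2 changes of 0.26 to 0.49; in Mrpl15 and Mrpl57 the clone 1 and WT libraries overlapped. Mrpl58 encodes a peptidyl-tRNA hydrolase built into the large subunit.

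Falls in the large subunit were led by Mrpl33 (chr5:31596935-31664384, plus strand), a small protein with a bacterial counterpart. It stood at 83.2 and 99.9 CPM in WT, at 54.1 and 54.9 in clone 1 and at 54.4 and 58.4 in clone 2. All 4 knockout libraries lay far below both WT libraries, with a mean fall of 1.65-fold (log2 -0.73, SE 0.10, adjusted p = 2.10e-05). Mrpl33 overlaps Gm43809 on the same strand. Mrpl45 (chr11:97315716-97329920, plus strand), which ties the ribosome to the inner membrane beside the peptide exit, had 68.1 and 72.6 CPM in WT, 43.7 and 43.2 in clone 1 and, in clone 2, 42.6 and 45.9. The 4 knockout libraries lay within a narrow band, 1.61-fold below WT (log2 -0.68, SE 0.10, adjusted p = 2.43e-05).

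Mrpl30 showed 89.0 and 73.6 CPM in WT, 56.9 and 62.3 in clone 1 and, in clone 2, 59.1 and 52.5 (log2 -0.49, SE 0.11, adjusted p = 0.00115). Mrpl55 showed 22.2 and 24.1 CPM in WT, 14.9 and 16.2 in clone 1 and, in clone 2, 18.6 and 16.4 (log2 -0.49, SE 0.12, adjusted p = 0.00240). In both genes all knockout libraries lay below both WT libraries. Mrpl4, Mrpl10, Mrpl24 and Mrpl46 also fell, by -0.40 to -0.28 on the log2 scale; in Mrpl4 the clone 2 libraries overlapped those of WT.

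**Figure D2:**
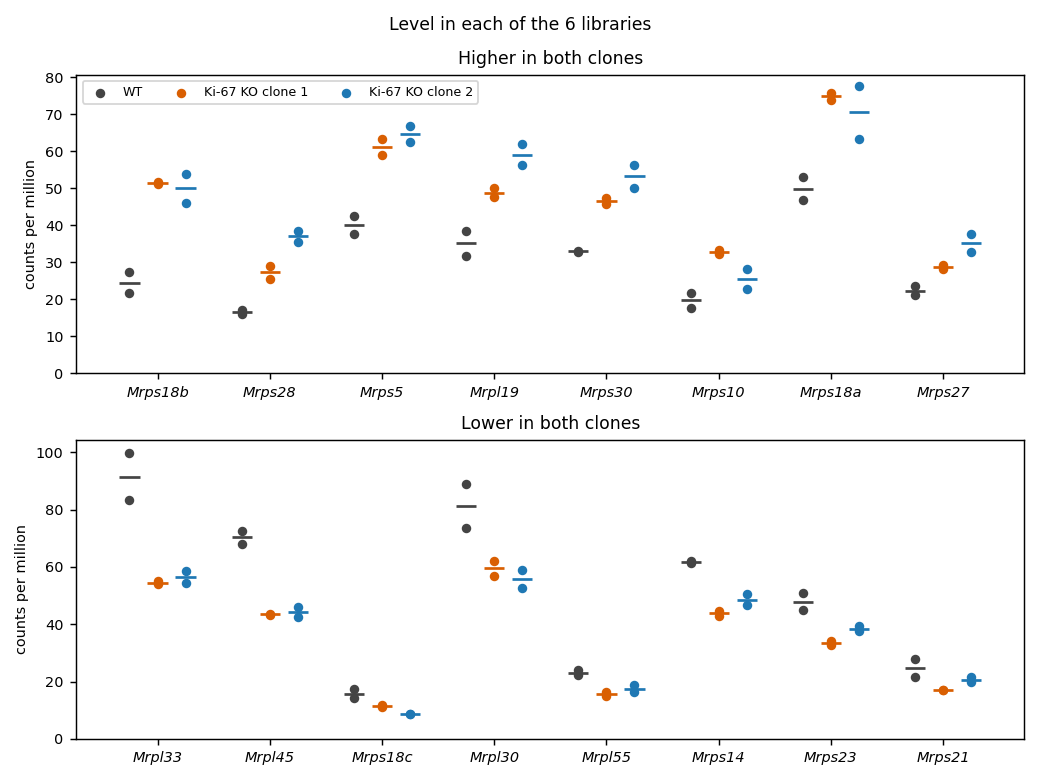
CPM (y axis, from 0) in each of the 6 libraries for the 8 members with the largest rises and the 8 with the largest falls among those called in the mean of both clones whose knockout libraries all lay on 1 side of WT; points are libraries, short lines are means of n = 2. Mrps18b sits at 21.6 and 27.3 in WT and from 46.1 to 54.0 in the clones, and Mrpl45 at 68.1 and 72.6 in WT and from 42.6 to 45.9 in the clones.

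The clones also differed from each other. Of the 77 members, 16 were higher in clone 2 than in clone 1 (20.8%, background 12.1%) and 3 were lower (3.9%, background 11.4%), with a median log2 difference of 0.12 against 0.00 for all genes tested. These counts changed with single libraries, as did the share of all genes called. Without clone 1 replicates 1 or 2 the higher members numbered 8 and 6, with 5.52% and 4.93% of all genes called higher. Without clone 2 replicates 1 or 2 they numbered 3 and 9, with 2.88% and 6.91% of all genes. The lower members numbered 8 without either WT library, 2 without clone 1 replicate 1, 0 without clone 1 replicate 2 or clone 2 replicate 1, and 1 without clone 2 replicate 2. When a change of more than 1.5-fold was required 0 members passed in either direction by edgeR, with backgrounds of 1.34% higher and 1.16% lower; at an unadjusted p under 0.05 the counts were 1 and 0. The WT libraries enter this comparison through the shared estimate of the spread.

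Mrpl54, a large subunit protein without a bacterial counterpart, showed the largest difference. It stood at 32.0 and 22.5 CPM in WT, at 21.5 and 24.1 in clone 1 and at 43.9 and 33.4 in clone 2. Clone 2 lay above clone 1 and a WT library lay close to the lower clone 2 library; the log2 difference was 0.76 (SE 0.17, adjusted p = 0.00560), and without clone 2 replicate 1 it was 0.56 (adjusted p = 0.139). Mrps16, a small subunit protein with a bacterial counterpart, had 27.4 and 25.7 CPM in WT, 19.5 and 20.1 in clone 1 and, in clone 2, 35.6 and 30.7. Clone 1 lay below and clone 2 above both WT libraries, and the log2 difference was 0.74 (SE 0.13, adjusted p = 0.000900). Against WT the change was -0.42 in clone 1 (adjusted p = 0.0143) and, for clone 2, 0.32 (adjusted p = 0.0481); with chromosome medians removed neither passed, at adjusted p of 0.290 and 0.143, and the clone 2 call was also lost with upper-quartile scaling (adjusted p = 0.145), DESeq2 (adjusted p = 0.0864) and limma-voom (adjusted p = 0.0535), and on leaving out WT replicate 2, either clone 1 library or clone 2 replicate 1. The clone 1 call was lost without either clone 1 library, at adjusted p of 0.107 and 0.0802.

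Mrpl57 had 33.9 and 35.3 CPM in WT, 33.7 and 38.8 in clone 1 and, in clone 2, 63.1 and 53.1, above every other library (log2 difference 0.68, SE 0.13, adjusted p = 0.00176). Its difference was 0.35 with chromosome medians removed (adjusted p = 0.0661) and 0.56 without clone 2 replicate 1 (adjusted p = 0.0564). In the other direction, Mrpl50 had 27.5 and 22 CPM in WT, 29.9 and 36.5 in clone 1 and, in clone 2, 19.0 and 21.8 (log2 difference -0.70, SE 0.15, adjusted p = 0.00342). It was at -0.38 with chromosome medians removed (adjusted p = 0.0763), -0.55 without clone 1 replicate 2 (adjusted p = 0.0547) and -0.60 without clone 2 replicate 1 (adjusted p = 0.101).

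Mrpl1, the protein of the mobile stalk at the tRNA exit, had 27.7 and 21.3 CPM in WT, 22.5 and 24.9 in clone 1 and, in clone 2, 15.8 and 16.7. Clone 2 was below every other library (log2 difference -0.54, SE 0.15, adjusted p = 0.0149), and the call was lost on leaving out clone 1 replicate 2 or either clone 2 library, with adjusted p of 0.132, 0.160 and 0.0746. Mrpl47 had 16.5 and 16.9 CPM in WT, 19.4 and 23 in clone 1 and, in clone 2, 14.7 and 16.5 (log2 difference -0.44, SE 0.14, adjusted p = 0.0353). That call was lost without any 1 of the 4 knockout libraries, with adjusted p from 0.0564 to 0.391, and by DESeq2 (adjusted p = 0.0802) and with chromosome medians removed (adjusted p = 0.0818).

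**Figure D3:**
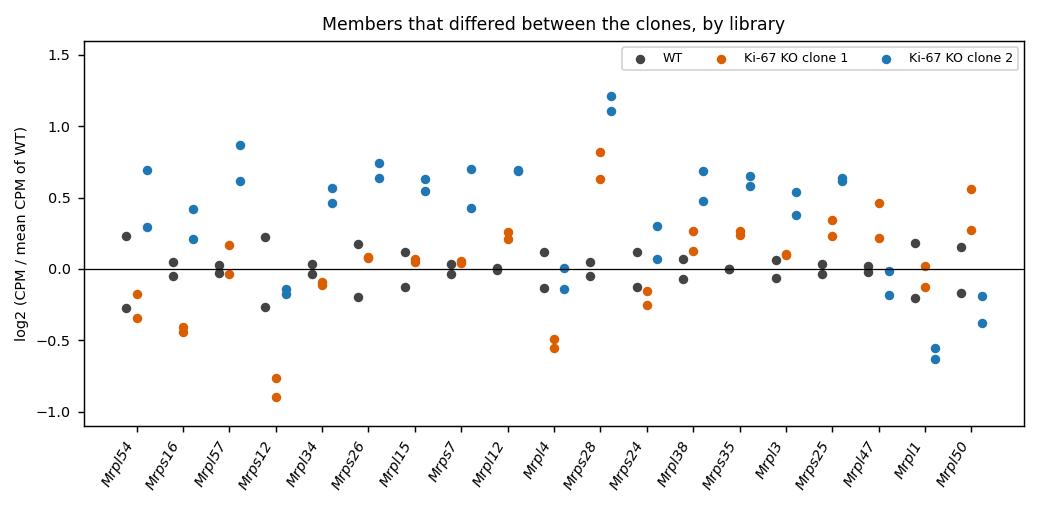
Log2 ratio of each library's CPM to the WT mean (y axis) for the 19 members called between the clones, ordered by the difference of clone 2 from clone 1; points are single libraries, grey WT, orange clone 1, blue clone 2. Mrps16 lies below WT in clone 1 and above it in clone 2, whereas Mrps28 lies above WT in both.

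The members' changes were read against those of their chromosomes. The median log2 fold change of all genes tested on chromosome 17, which carries 8 members, was 0.55 in clone 1 and 0.17 in clone 2; that of chromosome 10 was -0.41 and -0.36. Across the 77 members the log2 change in clone 1 correlated with the median of the member's chromosome (Pearson r = 0.50); r was 0.33 in clone 2 and 0.39 in the mean of both clones. Members of 1 chromosome share that median, so these are descriptions. Removing each chromosome's median left 21 members higher and 11 lower in the mean of both clones, of which 18 and 7 were among those called before. Of all genes tested 25.7% were then higher and 26.9% lower. In clone 1 the counts were 15 and 17, of which 7 and 8 had been called before, with backgrounds of 22.9% higher and 23.3% lower. Mrpl28 on chromosome 17 had a log2 change of 0.12 in clone 1 and -0.43 once the median of 0.55 was taken off. Gene dosage in these lines was not measured in these libraries, and its part in the changes was not tested.

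**Figure D4:**
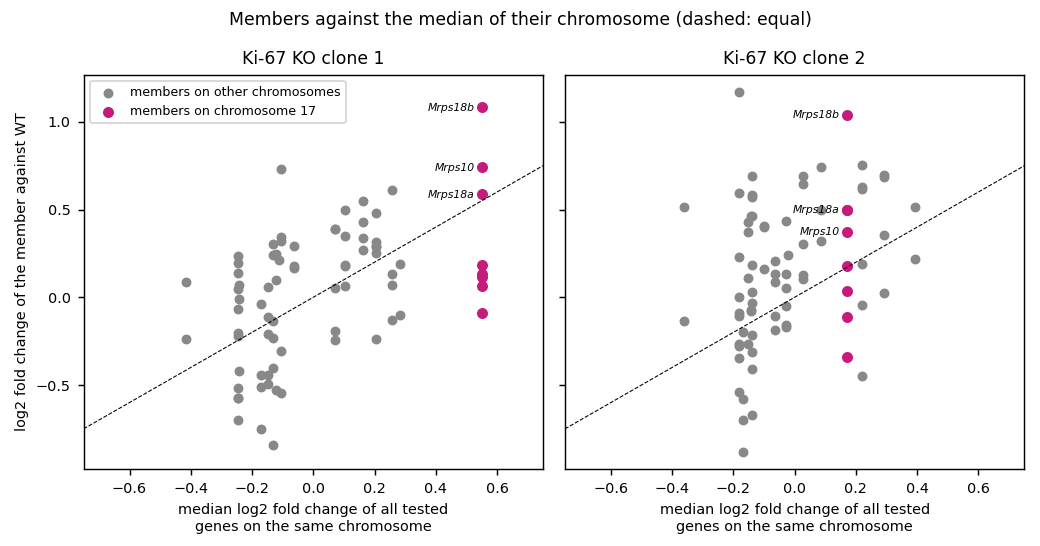
Log2 fold change of each of the 77 members against WT (y axis) and the median log2 fold change of all genes tested on its chromosome (x axis), in clone 1 on the left and clone 2 on the right; each point is a member, the dashed line marks equality, and members on chromosome 17 are coloured. In clone 1 the chromosome 17 members lie at a chromosome median of 0.55, with Mrps18b, Mrps10 and Mrps18a above the line.

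Genes that work with the mitoribosome were read in lists. In the mean of both clones the background shares, 26.6% higher and 29.4% lower, apply to each list. Mitoribosomal proteins with other symbols numbered 5, of which 2 rose: Gadd45gip1, with 55.8 and 60.6 CPM in WT, 88.5 and 86.7 in clone 1 and, in clone 2, 123 and 115 (log2 0.81, SE 0.10, adjusted p = 6.11e-06), and Ptcd3 (log2 0.42, adjusted p = 0.00386). Dap3, the GTP-binding protein of the small subunit, did not pass (log2 0.17, adjusted p = 0.173). Of 27 assembly factors 14 rose and 7 fell, 51.9% and 25.9%, with a median of 0.30. Trub2, a pseudouridine synthase of mitochondrial RNA, stood at 26.1 and 33.3 CPM in WT, at 55.2 and 51.5 in clone 1 and at 58.3 and 56.5 in clone 2 (log2 0.89, adjusted p = 1.16e-05). The assembly GTPases Mtg2 (log2 0.76, adjusted p = 3.16e-05) and Noa1 (log2 0.71, adjusted p = 3.03e-05) rose too.

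Of 13 mitochondrial translation factors, 0 were called higher and 3 lower by edgeR in the mean of both clones. The share called lower, 23.1%, was below the background of 29.4%, and the background of genes called higher was 26.6%. At an unadjusted p under 0.05 the counts were 0 and 4, DESeq2 and limma-voom each called 0 and 3, and with no filter on low counts 1 was called higher. With upper-quartile scaling 0 were higher and 5 lower, and 0 passed in either direction when edgeR was asked for a change of more than 1.5-fold, with 1 lower at an unadjusted p under 0.05. The 3 were Mtrf1, a release factor (log2 -0.90, adjusted p = 0.00103), Mtif2, the initiation factor that brings in the first tRNA (log2 -0.51, adjusted p = 0.00170), and Mtfmt, which formylates that tRNA (log2 -0.52, adjusted p = 0.00260). In clone 1 edgeR called 0 translation factors higher and 4 lower (30.8%, background 26.2%). In clone 2 the counts were 1 and 4, 7.69% and 30.8% (backgrounds 25.3% and 28.2%). Between the clones 4 factors were higher in clone 2 and 2 lower, 30.8% and 15.4% (backgrounds 12.1% and 11.4%). Of 20 mitochondrial aminoacyl-tRNA synthetases 7 rose and 4 fell in the mean of both clones, 35% and 20%. The synthetase counts were 5 and 5 with upper-quartile scaling and 7 and 2 with chromosome medians removed. Nars2, the asparaginyl enzyme, rose from 14.5 and 10.6 CPM in WT to 25.1 and 27.7 in clone 1 and 27.7 and 27.8 in clone 2 (log2 1.13, adjusted p = 4.79e-06), and Aars2 rose (log2 0.60, adjusted p = 0.00363). Lars2 read 845 and 3987 CPM in WT, 1506 and 801 in clone 1 and, in clone 2, 21.7 and 21.1, a spread between WT libraries wider than that of any member.

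Among 26 genes of mitochondrial DNA replication, transcription and RNA processing 6 rose and 6 fell, 23.1% each way and below both background shares. With chromosome medians removed the counts were 7 and 3. Tbrg4, an RNA-binding protein of the FASTK family, rose (log2 0.97, adjusted p = 1.79e-06), while Mterf2, of the mitochondrial transcription termination factor family (log2 -1.56, adjusted p = 8.49e-06) and Slirp, a partner of the RNA-stabilising protein LRPPRC (log2 -0.71, adjusted p = 0.000312), fell. Of 11 tested regulators of mitochondrial gene expression 7 rose and 3 fell, 63.6% and 27.3%. Myc stood at 83.3 and 86.9 CPM in WT, at 210 and 188 in clone 1 and at 228 and 237 in clone 2 (log2 1.34, adjusted p = 2.32e-08). Pprc1, a coactivator of the PGC-1 family, rose (log2 1.15, adjusted p = 1.58e-06). Ppargc1a, the coactivator PGC-1alpha, had 17 and 22 reads in the WT libraries and 0 in the 4 knockout libraries. Against a floor of 3 counts over those 4 libraries it was at least 42.2-fold lower, a bound that covers counting error only. The genes of 2 factors whose letters were searched above, chosen after their values were seen, moved apart: Nrf1 rose (log2 0.91, adjusted p = 2.29e-06) and Gabpa fell (log2 -0.33, adjusted p = 0.0338).

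Respiratory chain subunits are encoded in both genomes, and those from the mitochondrial genome are made by the mitoribosome. Of 78 tested nuclear genes for respiratory chain subunits 4 rose and 26 fell, 5.13% and 33.3%, with a median of -0.18. Against backgrounds of 26.6% and 29.4%, rises were fewer and falls near the background. The difference from the mitoribosomal members was not tested. In clone 1 the counts were 3 and 30, 3.85% and 38.5% (backgrounds 24.7% and 26.2%), with a median of -0.27. In clone 2 they were 9 and 17, 11.5% and 21.8% (backgrounds 25.3% and 28.2%), with a median of -0.04. Between the clones 21 of the 78 were higher in clone 2 and 3 were lower, 26.9% and 3.85% (backgrounds 12.1% and 11.4%). The members also had more genes higher than lower in clone 2 against clone 1. Uqcrh, the hinge protein of complex III, stood at 101 and 144 CPM in WT, at 50.2 and 56.3 in clone 1 and at 40.4 and 48.8 in clone 2 (log2 -1.33, adjusted p = 5.60e-07). Ndufb3 of complex I fell (log2 -1.27, adjusted p = 1.34e-06), as did Cox6a2, a heart and muscle form of a subunit of complex IV (log2 -3.12, adjusted p = 4.56e-08).

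Of the 13 mitochondrially encoded messages, 6 had no read in any library and 7 were tested, of which 1, mt-Nd6, fell (log2 -0.79, adjusted p = 0.00183). The other 6 did not pass, and libraries of 1 group differed widely. For mt-Nd1 the values were 2508 and 582 CPM in WT, 1506 and 2501 in clone 1 and, in clone 2, 1270 and 714, and for mt-Nd4 they were 151 and 19.7, 79.8 and 130, and 79.1 and 32.9. Reads that mapped to several places, 24.7% to 29.3% of each library, are in no gene's count; whether they account for the messages at 0 was not tested.

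Cytoplasmic ribosomal protein mRNAs rose more often than they fell, 27 against 7 of 77, 35.1% and 9.09%, with a median of 0.27. With chromosome medians removed the counts were 33 and 2. Rps2 (log2 1.12, adjusted p = 6.78e-06), Rpl13 (log2 0.77, adjusted p = 8.52e-06) and Rps18 (log2 0.90, adjusted p = 1.07e-05) had the smallest adjusted p, and Rps2 and Rps18 lie on chromosome 17. Mitochondrial chaperones and proteases numbered 13, of which 6 rose and 3 fell, 46.2% and 23.1%. Among them, 2 proteases rose, Clpp (log2 0.81, adjusted p = 7.00e-06) and Htra2 (log2 0.66, adjusted p = 0.000140), and Clpx, the unfoldase that feeds Clpp, fell (log2 -0.60, adjusted p = 0.000366).

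**Figure D5:**
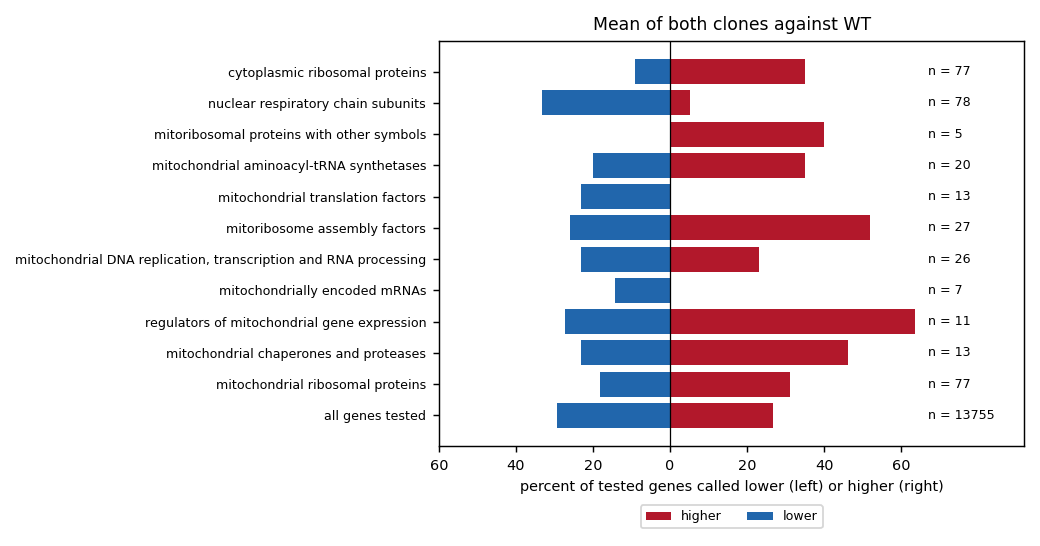
Percent of the tested genes of each list called lower (left of 0) or higher (right of 0) in the mean of both clones against WT at an adjusted p under 0.05, with the number tested at the right. The mitochondrial ribosomal proteins have 31.2% higher and 18.2% lower, and all genes tested 26.6% and 29.4%. The respiratory chain list has 5.13% higher and 33.3% lower.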

How the data were processed

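The RNA of WT cells and of each of the 2 knockout clones was sequenced in 2 libraries, 6 in all. The deposited values are the authors' counts of reads per gene, unnormalized, in 1 table per library; per the submitters' processing notes FastQC and STAR 2.6.0c were used with GRCm38, and the annotation used for counting is not given in the sources used here. Column 4, the reverse-strand count, was used, since 92.3% to 95.7% of stranded reads on genes fell there. Reads assigned to genes were 43.2% to 53.1% of all reads, and the 4 summary rows at the head of each table were set aside. Symbols and exon lengths came from GENCODE mouse release 21, which matched 54079 IDs.

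Genes with enough reads (filterByExpr, 13755 genes) were fitted with edgeR 4.0.16 in R 4.3.3: TMM scaling, 1 term per group, robust quasi-likelihood test, Benjamini-Hochberg adjustment over all genes tested, threshold 0.05. Levels are CPM with TMM-scaled library sizes, and RPKM divides these by exon length. Separate cultures are not stated for the libraries of a group, so the spread behind each p-value may be technical. Members of the subunit and origin classes follow the usual ribosome nomenclature. Alternatives used DESeq2 1.42.0, limma 3.58.1, other scalings, filters and strand, a replicate block, chromosome medians removed, and each library left out.

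Members and lists were chosen with earlier results of these data known. Members named in full were the 8 largest and 8 smallest changes in the mean of both clones among those called with all knockout libraries on 1 side of WT, the 3 largest and 3 smallest between the clones, the 3 highest and 3 lowest RPKM, the Mrps18 paralogs, Mrpl12 and Mrps36. From each companion list up to 3 genes with the smallest adjusted p in the mean comparison were named, with Myc, and 1 of these genes is left out here. Mrps12, Nrf1, Gabpa, Lars2, mt-Nd1 and mt-Nd4 were chosen after their values were seen.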

Additional observations from a re-analysis of the deposited data

Results flagged for a closer look

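Members whose effect differed between the clones by the test of the difference itself (edgeR's quasi-likelihood test of clone 2 against clone 1, adjusted p under 0.05 over all genes tested) are given with their log2 differences. Higher in clone 2 were Mrpl54 by 0.76, Mrps16 by 0.74, Mrpl57 by 0.68, Mrps12 by 0.67, Mrpl34 by 0.62, Mrps26 by 0.61, Mrpl15 by 0.53, Mrps7 by 0.52, Mrpl12 by 0.46, Mrpl4 by 0.46, Mrps28 by 0.44, Mrps24 by 0.39, Mrpl38 by 0.39, Mrps35 by 0.37, Mrpl3 by 0.36 and Mrps25 by 0.34. Lower in clone 2 were Mrpl50, at -0.70, Mrpl1, at -0.54, and Mrpl47, at -0.44. Calls on this list were lost when single libraries were left out, those of Mrps28 and Mrpl12 among them. The Mrps28 call was lost without any 1 of the knockout libraries. That of Mrpl12 was lost without either clone 1 library or clone 2 replicate 1, at log2 differences of 0.44 to 0.48. With 2 libraries a group, no sample could be tested as standing apart from its group.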

How the results depend on the processing

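Counts of members called stayed within 1.5 times of those reported under DESeq2 size factors and its Wald test, limma-voom, upper-quartile scaling, unstranded counts and a filter of 1 CPM in 2 libraries. They depended on the size asked for, since most members changed by less. When edgeR required a change of more than 1.5-fold, 2 members were higher and 0 lower in the mean of both clones. The counts were 1 and 0 in clone 1, 2 and 0 in clone 2, and 0 and 0 between the clones. Of all genes tested, 8.55% were higher and 12.4% lower at that size in the mean of both clones. The shares were 8.11% and 11.4% in clone 1, 9.07% and 13% in clone 2, and 1.34% and 1.16% between the clones. Members lower in clone 2 against WT numbered 5 with no filter on low counts and 5 when only the groups compared were fitted, and members lower in clone 2 against clone 1 numbered 8 in the latter fit and 1 with chromosome medians removed; the cause was not tested. Without filter, the median log2 change of all genes tested in the mean of both clones moved from -0.02 to 0.09. Leaving out each library in turn gave 8 to 19 members higher in clone 1, 5 to 11 lower in clone 2, and 3 to 23 higher and 0 to 8 lower between the clones. Where that left 1 library in a group, it was assumed to vary like the other groups. Mrpl28 in clone 1, not called as reported, was at -0.43 with chromosome medians removed, the shift of chromosome 17 being subtracted.

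Replicate numbers did not pair the libraries: the replicate differences correlated across genes at -0.16 for WT and clone 1, 0.08 for WT and clone 2 and 0.00 for the clones. With the replicate block, 20 members were higher and 13 lower in the mean of both clones, 11 and 14 in clone 1, 27 and 8 in clone 2, and 13 and 3 between the clones. The coefficient of variation common to all genes was 10.3%; Mrpl53, with 3 reads in all, was below what this depth can test.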
